A study of Homo sapiens with 10 samples.

Results

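Granins and the enzymes of secretory granule processing were followed in SH-SY5Y cells, a line grown from a human neuroblastoma. The set held 9 genes, taken by gene symbol from the 27992 symbols of the expression table. They were the granins CHGA, CHGB, SCG2, SCG3, SCG5 and VGF and the processing enzymes PCSK1, PCSK2 and CPE. The members were chosen by their levels in the 10 libraries relative to empty vector. Every value of a member against empty vector is therefore a description here and carries no test.

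RNA-seq measured 10 libraries, 2 in each of 5 transfection states. The cells carried linearized plasmid, either the empty expression vector (pcDNA3) or pcDNA3 with the isoform I cDNA of FOXP2, a forkhead transcription factor. The cDNA came from human (hsaFOXP2), common chimpanzee (ptrFOXP2), Rhesus monkey (mmuFOXP2) or white-tufted ear marmoset (cjaFOXP2). All cells, those with empty vector included, were stable transfectants of the same line kept in medium with geneticin, and the constructs bore no FLAG tag. The labels name replicates A and B, from separate rounds of transfection, while the methods of the study speak of a further round. The p-values below thus describe the spread between stable transfections of 1 line.

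Granins are acidic proteins of the dense-core secretory granule, the organelle in which neurons and endocrine cells store peptide hormones and amines. They help to load and form the granule, and several are themselves precursors of peptides. In the granule, prohormone convertases cut the precursors after basic residues, and carboxypeptidase E then trims these residues from the new ends. Neuroblastoma cells descend from the sympathoadrenal lineage, whose chromaffin cells are a classical source of granins.

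Promoter windows of 2 members are shown, that of SCG3, whose RNA was lower with FOXP2, and that of VGF, whose abundant RNA overlapped between the states. Each window is from RefSeq on GRCh38.p14, on the strand of the gene, and spans 250 bases before to 50 bases after the start. Capitals mark TGACGTCA, the cyclic AMP response element (CRE), which CREB binds. The lines give SCG3 at chr15:51681253-51681552 on the plus strand and VGF at chr7:101165520-101165819 on the minus strand.
SCG3: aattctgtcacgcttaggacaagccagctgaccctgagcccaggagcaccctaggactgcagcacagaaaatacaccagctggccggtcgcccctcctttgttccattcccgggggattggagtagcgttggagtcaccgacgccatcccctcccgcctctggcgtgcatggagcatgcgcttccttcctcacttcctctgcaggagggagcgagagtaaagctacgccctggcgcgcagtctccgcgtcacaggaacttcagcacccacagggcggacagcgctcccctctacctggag
VGF: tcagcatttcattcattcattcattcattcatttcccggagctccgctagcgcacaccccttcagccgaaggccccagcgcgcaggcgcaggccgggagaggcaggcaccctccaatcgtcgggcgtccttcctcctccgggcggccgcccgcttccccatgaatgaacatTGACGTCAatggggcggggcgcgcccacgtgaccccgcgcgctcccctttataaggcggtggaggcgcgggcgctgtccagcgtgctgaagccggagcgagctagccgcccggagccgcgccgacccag

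Windows of 6 members, 8 in all, are described, and none of CHGA, CHGB and SCG2. The CRE began 79 bases before the start of VGF. It was also found in 1 of the windows of PCSK1, 77 bases before the start, and in 649 of all 35116 windows (1.85%). The shorter TGACG, which every CRE contains, was found on either strand in windows of all 6 members, SCG3 included, and in 24.6% of all windows. The forkhead motif TGTTTAC was found in PCSK1 alone among the 6 members and in 3.42% of all windows. CAAATT, a core bound by FOXP2, was found in none of the 8 windows and in 10.7% of all windows. Both strands were searched for each motif.

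The transfected gene was checked first, with the reads of all 4 cDNAs aligned to the human genome. With empty vector, FOXP2 had 0.00450 BPKM in replicate A and was listed at 0 in replicate B. BPKM counts mapped bases by length of the exon model and by all mapped bases of the library, so that levels can be compared between genes. FOXP2 had 1.54 and 0.932 BPKM with hsaFOXP2, 2.09 and 21.8 BPKM with ptrFOXP2, 30.2 and 3.91 BPKM with mmuFOXP2, and 14.5 and 18.3 BPKM with cjaFOXP2, replicate A before B. FOXP2 RNA was thus present in all 8 FOXP2 libraries, lowest in both hsaFOXP2 libraries, and far apart between the replicates of ptrFOXP2 and of mmuFOXP2. Read counts are not in the table, so the absolute depth is unknown; the relative depth, estimated from the lowest values, ranged from 1 to 1.27.

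The cells carried RNA of the adrenergic neuroblastoma program. HAND2, a transcription factor of that program, had 84.7 to 152 BPKM, and GATA3 had 30.1 to 45.1 BPKM. TH, the first enzyme of catecholamine synthesis, was listed at 0 in every library but mmuFOXP2 replicate B, where it had 0.00200 BPKM. The 10 adrenergic markers summed to 296 and 310 BPKM with empty vector and to 221 to 424 BPKM with FOXP2. The 11 mesenchymal markers, among them VIM and FN1, summed to 2477 and 2534 BPKM with empty vector and to 2107 to 3334 BPKM with FOXP2. The 5 glial markers summed to 3.51 and 4.55 BPKM and to 1.47 to 6.67 BPKM, and the defining SOX10 was at or near 0 throughout.

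The members spanned the whole range of expression. VGF, the precursor of neuropeptides, had a mean of 1495 BPKM over the 10 libraries and ranked 13 of the 23348 genes above 0 in at least 1 library. SCG2, the precursor of secretoneurin, had a mean of 980 BPKM and ranked 19. These are the levels of the most abundant cytoskeletal and metabolic RNAs, with GAPDH between 672 and 1346 BPKM. CPE had a mean of 37.7 BPKM at rank 1257, and SCG5, the chaperone 7B2 of the convertase PCSK2, had 33.6 BPKM at rank 1445. CHGB with 2.77 BPKM at rank 10655, CHGA with 2.43 BPKM at rank 11089 and SCG3 with 0.531 BPKM at rank 14601 stood far below them. PCSK1 and PCSK2 lay at the floor of detection.

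CHGA, the founding granin and precursor of vasostatin and catestatin, was the member with the widest range. It had 10.1 and 6.00 BPKM with empty vector, 1.33 and 3.24 BPKM with hsaFOXP2, 1.56 and 0.369 BPKM with ptrFOXP2, 0.236 and 0.595 BPKM with mmuFOXP2, and 0.559 and 0.321 BPKM with cjaFOXP2. Both empty vector libraries were above all FOXP2 libraries, and hsaFOXP2 replicate B came closest to them. The mean with empty vector was 8.02 ± 2.87 BPKM (SD, n = 2), and that of the FOXP2 libraries was 1.03 ± 1.02 BPKM (SD, n = 8), a ratio of 7.82. Between the lowest and the highest library CHGA differed 42.7-fold. In these bulk samples, fewer cells with CHGA and less CHGA RNA per cell cannot be told apart.

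By state, the order of CHGA was empty vector, hsaFOXP2 (2.28 ± 1.35 BPKM), ptrFOXP2 (0.965 ± 0.843 BPKM), cjaFOXP2 (0.440 ± 0.168 BPKM) and mmuFOXP2 (0.415 ± 0.254 BPKM), each mean ± SD of n = 2. The libraries of hsaFOXP2 and ptrFOXP2 overlapped, as did those of ptrFOXP2 and cjaFOXP2 and those of cjaFOXP2 and mmuFOXP2. Empty vector overlapped with none. The fitted log2 difference to empty vector, on log2(BPKM + 0.1), was −1.85 (SE 0.69) for hsaFOXP2 and −4.03 (SE 0.69) for mmuFOXP2.

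SCG3, a granin that binds CHGA and cholesterol-rich granule membrane in rodent endocrine cells, had the same shape at a lower level. It had 1.80 and 0.960 BPKM with empty vector, 0.390 and 0.900 BPKM with hsaFOXP2, 0.413 and 0.138 BPKM with ptrFOXP2, 0.181 and 0.197 BPKM with mmuFOXP2, and 0.180 and 0.145 BPKM with cjaFOXP2. Empty vector again lay above all FOXP2 libraries, but the gap between its replicate B and hsaFOXP2 replicate B was small. The mean was 1.38 ± 0.596 BPKM with empty vector (SD, n = 2) and 0.318 ± 0.259 BPKM with FOXP2 (SD, n = 8), a ratio of 4.35.

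CHGB, the other chromogranin, differed less. It had 3.87 and 3.56 BPKM with empty vector, 2.18 and 3.55 BPKM with hsaFOXP2, 2.80 and 1.86 BPKM with ptrFOXP2, 2.39 and 1.83 BPKM with mmuFOXP2, and 3.41 and 2.24 BPKM with cjaFOXP2. The lower empty vector library and hsaFOXP2 replicate B were all but equal, so its separation from FOXP2 was very small. The ratio of the means was 1.47.

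Counted over all genes, 403 of 23348 (1.73%) had both empty vector libraries above all 8 FOXP2 libraries, and 128 (0.548%) had both below. Among the members, CHGA, CHGB and SCG3 were of the first kind and none was of the second. Since this contrast proposed the members, the counts are given side by side only. In the plot of each member by library, CHGA and SCG3 fall far below empty vector, CHGB lies below it by a smaller ratio, and SCG2, VGF, SCG5 and CPE overlap with it.

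**Figure D1:**
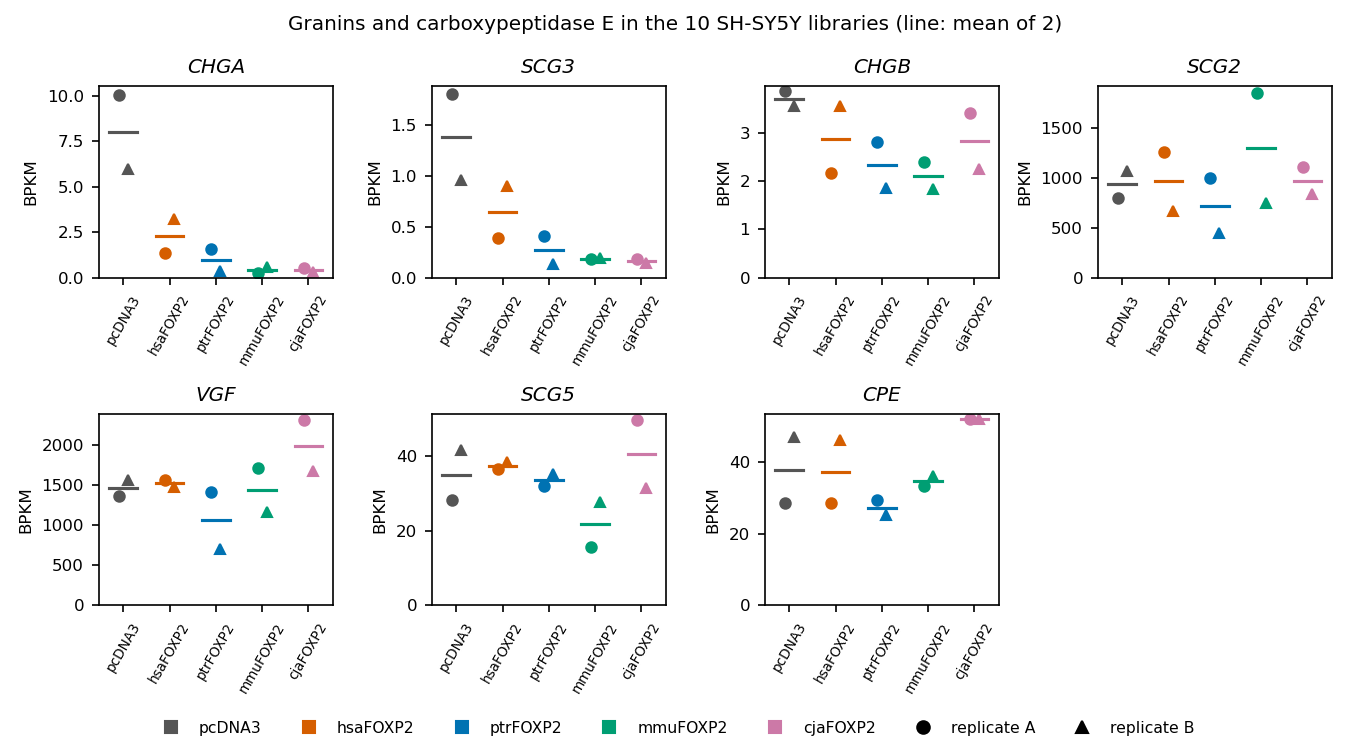
BPKM (y axes, linear from 0) of the 7 members with measurable RNA in the 10 libraries, by transfection state (x axes); circles are replicate A, triangles replicate B and lines the mean of 2. CHGA lies at 6.00 BPKM or above with empty vector and at 3.24 BPKM or below with FOXP2, while SCG2, VGF, SCG5 and CPE overlap between the states.

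The abundant granins showed no such step. SCG2 had 802 and 1073 BPKM with empty vector, 1266 and 665 BPKM with hsaFOXP2, 996 and 451 BPKM with ptrFOXP2, 1853 and 748 BPKM with mmuFOXP2, and 1106 and 843 BPKM with cjaFOXP2. The empty vector libraries lay inside the range of the FOXP2 libraries, and replicate A exceeded replicate B in all 4 FOXP2 states. The mean with FOXP2 was 1.06-fold that with empty vector.

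VGF had 1365 and 1565 BPKM with empty vector, 1559 and 1481 BPKM with hsaFOXP2, 1418 and 704 BPKM with ptrFOXP2, 1716 and 1163 BPKM with mmuFOXP2, and 2307 and 1675 BPKM with cjaFOXP2. Its lowest library was ptrFOXP2 replicate B and its highest cjaFOXP2 replicate A, with empty vector between them. The ratio of the FOXP2 mean to the empty vector mean was 1.03.

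SCG5 had 28.2 and 41.6 BPKM with empty vector, 36.5 and 38.3 BPKM with hsaFOXP2, 31.9 and 35.1 BPKM with ptrFOXP2, 15.8 and 27.8 BPKM with mmuFOXP2, and 49.6 and 31.6 BPKM with cjaFOXP2. The states overlapped except that both mmuFOXP2 libraries lay below all others. The ratio of the FOXP2 mean to the empty vector mean was 0.955.

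The processing enzymes divided by level. CPE had 28.5 and 46.9 BPKM with empty vector, 28.5 and 46.0 BPKM with hsaFOXP2, 29.3 and 25.0 BPKM with ptrFOXP2, 33.3 and 36.1 BPKM with mmuFOXP2, and 51.8 and 52.0 BPKM with cjaFOXP2. Both cjaFOXP2 libraries were above all others, and empty vector and hsaFOXP2 covered nearly the same span. The ratio of the FOXP2 mean to the empty vector mean was 1.00.

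PCSK1, the convertase PC1/3, ranged from 0 to 0.0158 BPKM and was listed at 0 in hsaFOXP2 replicate B. PCSK2, the convertase PC2, did not exceed 0.000528 BPKM and was listed at 0 in 6 of the 10 libraries. These values are far below 0.1, the constant added before taking logs, so the state of transfection cannot be compared for either convertase. SCG5, the chaperone of PC2, was thus present where RNA of PC2 was barely detected.

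**Figure D2:**
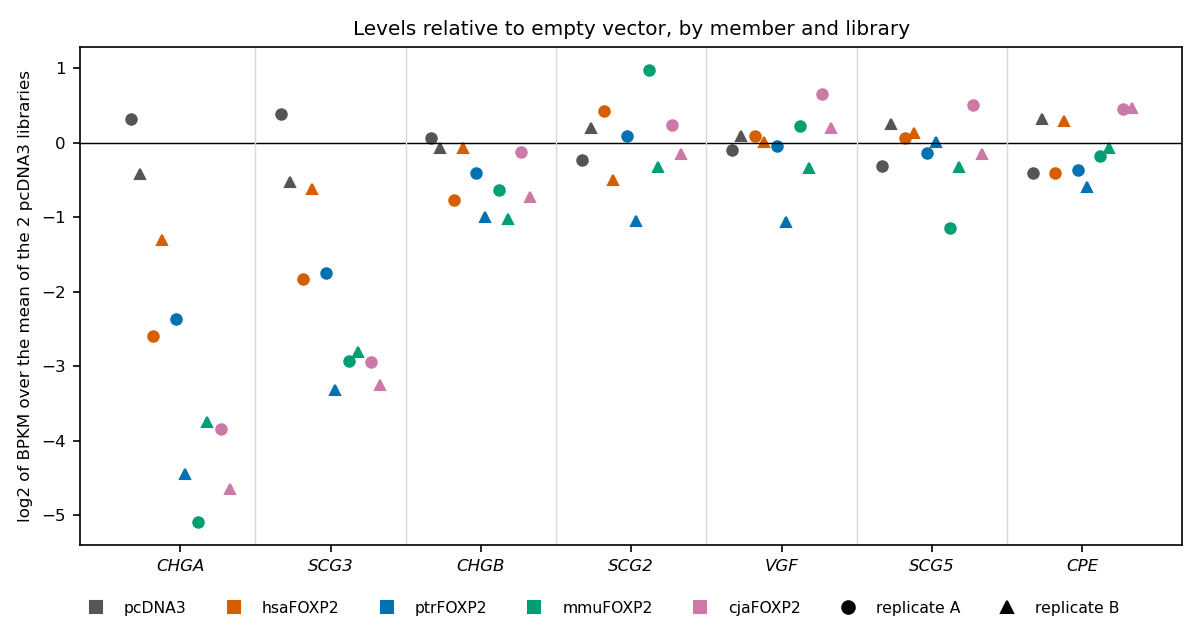
Log2 of the BPKM of each library over the mean of the 2 pcDNA3 libraries (y axis) for the 7 members with measurable RNA (x axis), colored by transfection state. The FOXP2 libraries of CHGA and SCG3 all lie below 0, at means of 1.03 and 0.318 BPKM against 8.02 and 1.38 BPKM. Those of CHGB, from 1.83 to 3.55 BPKM against a mean of 3.71 BPKM, also lie below 0, while those of SCG2, VGF, SCG5 and CPE lie on both sides.

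The comparison of hsaFOXP2 with the non-human FOXP2 cDNAs asks whether the human sequence acts differently, and it does not involve empty vector. CHGA had 1.33 and 3.24 BPKM with hsaFOXP2, while the 6 libraries with a non-human cDNA had 0.236 to 1.56 BPKM, a log2 fold change of 1.85 (SE 0.58). SCG3 had 0.390 and 0.900 BPKM against 0.138 to 0.413 BPKM, a log2 fold change of 1.23 (SE 0.36). In both genes hsaFOXP2 replicate B was the highest library and ptrFOXP2 replicate A exceeded hsaFOXP2 replicate A, so the groups overlapped.

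Neither difference passed limma's test after Benjamini-Hochberg adjustment over 21937 genes (adjusted p = 0.906 for CHGA and 0.869 for SCG3; unadjusted p = 0.0125 and 0.00821). In that test 2 genes (0.00912%) were called, no member among them, and 973 (4.44%) had an unadjusted p under 0.05, among them CHGA and SCG3 of the 9 members. All 6 granins had a positive log2 fold change, with a median of 0.26 beside 0.01 for all genes tested. That of SCG2 was below the median of all genes, at percentile 48.0. Those of CHGB, SCG2 and VGF changed sign in fits without 1 library, so the count of signs does not describe the granins as a group. CHGB differed by 0.23 (SE 0.27), SCG5 by 0.30 (SE 0.35), VGF by 0.11 (SE 0.39), SCG2 by 0.01 (SE 0.48) and CPE by −0.01 (SE 0.32) on the log2 scale. No member had both hsaFOXP2 libraries above all 6 non-human FOXP2 libraries, as 3.39% of all genes had, or both below, as 2.0% had. Since FOXP2 RNA was lowest with hsaFOXP2, the sequence of the cDNA and the level of FOXP2 RNA cannot be told apart here; FOXP2 protein was not analysed here.

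Among the 4 FOXP2 cDNAs, the F test of limma called 1 of 22238 genes (0.0045%), no member, and 2234 (10.0%) had an unadjusted p under 0.05. CHGA came nearest, with an unadjusted p of 0.0501 (adjusted p = 0.497). CPE followed (unadjusted p = 0.0683, adjusted p = 0.534), with the libraries of cjaFOXP2 above those of the other cDNAs.

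The round of transfection was tested across all 10 libraries with the state as a factor. SCG2 was lower in replicate B than in A by a log2 value of −0.67 (SE 0.26), with an unadjusted p of 0.0384 and an adjusted p of 0.444 in limma. It was lower in 4 of the 5 states, and higher in B with empty vector. VGF, lower in B in the same 4 states, differed by −0.38 (SE 0.19, adjusted p = 0.472). Limma called no gene, and so no member, between the rounds (0 of 22238, 0.0%), although 2442 had an unadjusted p under 0.05. MALAT1, a nuclear RNA, had 14.6 to 39.6 BPKM in the A libraries and 39.1 to 89.9 BPKM in the B libraries and was higher in B in every state. Its part in the values of SCG2 was not tested.

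The level of FOXP2 RNA differed between replicates, which allowed a comparison within the 8 FOXP2 libraries that leaves empty vector out. It was chosen after the values had been seen. Ordered by FOXP2 RNA from 0.932 to 30.2 BPKM, the libraries had 3.24, 1.33, 1.56, 0.595, 0.559, 0.321, 0.369 and 0.236 BPKM of CHGA. The highest CHGA thus stood with the lowest FOXP2 RNA and the lowest CHGA with the highest, with only neighbors out of order. Along the same order SCG3 had 0.900, 0.390, 0.413, 0.197, 0.180, 0.145, 0.138 and 0.181 BPKM, from 0.900 to 0.197 BPKM over the first 4 libraries and from 0.138 to 0.181 BPKM over the last 4. FOXP2 RNA left a gap between 3.91 and 14.5 BPKM, with 4 libraries on each side.

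The replicates of ptrFOXP2 and mmuFOXP2 carry the same cDNA at very different levels of FOXP2 RNA. In ptrFOXP2, replicate B had 10.4-fold the FOXP2 RNA and 0.237-fold the CHGA RNA of replicate A. In mmuFOXP2, replicate A had 7.73-fold the FOXP2 RNA and 0.396-fold the CHGA RNA of replicate B. In either pair the library with more FOXP2 RNA had less CHGA RNA, replicate B in ptrFOXP2 and replicate A in mmuFOXP2. Each pair sets a single library against another, and the source of these differences was not tested. SCG3 followed in ptrFOXP2 at 0.334-fold and was nearly level in mmuFOXP2 at 0.919-fold.

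Over the 8 libraries, CHGA and FOXP2 correlated on the log2(BPKM + 0.1) scale with Pearson's r = −0.946 (exact permutation p = 9.92e-05) and Spearman's rho = −0.952 (exact permutation p = 0.00114). Without the 2 libraries farthest from the median of FOXP2, those of hsaFOXP2, r was −0.917. For SCG3 r was −0.882 (exact permutation p = 0.000942) and rho −0.833 (exact permutation p = 0.0154), and r was −0.824 without these libraries. Of the 7 relations computed, the other 5, for CHGB, SCG2, SCG5, VGF and CPE, had r between −0.350 and 0.111 (exact permutation p from 0.437 to 0.947). These permutations exchange the 8 libraries freely and leave aside that the libraries of a cDNA or of a round share it, so the p-values may be too small. The relation was also chosen after the values of these libraries had been seen. The permutation p-values therefore describe the order and are no independent test of it.

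Over all genes, the slope of CHGA on FOXP2 RNA was −0.57 log2 units per log2 unit (SE 0.07), at rank 5 by p of 21936 genes, and that of SCG3 was −0.33 (SE 0.07), at rank 38. Neither passed adjustment over these genes in limma (adjusted p = 0.213 and 0.783; unadjusted p = 4.86e-05 and 0.00138). No gene did (0 of 21936, 0.0%), and 595 (2.71%) had an unadjusted p under 0.05, of the members CHGA and SCG3. With the round as a block the slope of CHGA was −0.57 (adjusted p = 0.429), and with the cDNA as a factor it was −0.50 (adjusted p = 1.00). With the cDNA as a factor the slope of SCG3 was −0.23 (adjusted p = 1.00). Each round holds 4 FOXP2 libraries, too few for an r of its own. Leaving out any library kept the slope of CHGA between −0.60 and −0.48 (adjusted p from 0.212 to 0.846).

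**Figure D3:**
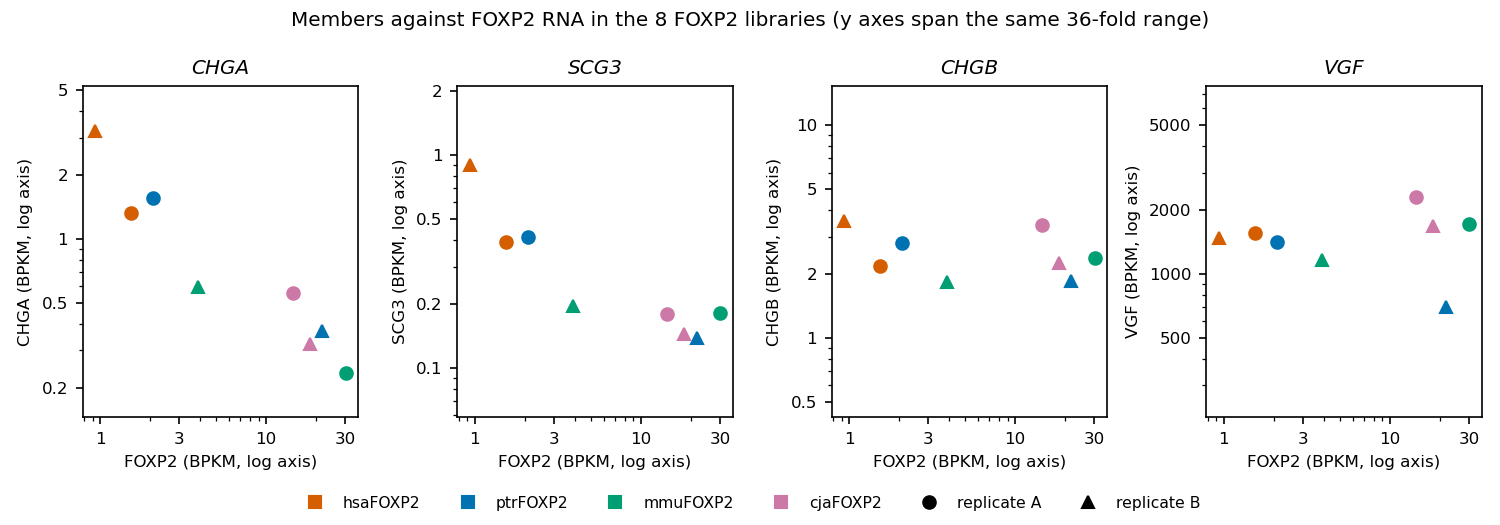
BPKM of CHGA, SCG3, CHGB and VGF (y axes, log scale) against BPKM of FOXP2 (x axes, log scale) in the 8 FOXP2 libraries, colored by cDNA, with circles for replicate A and triangles for replicate B. CHGA goes from 3.24 BPKM at 0.932 BPKM of FOXP2 to 0.236 BPKM at 30.2 BPKM of FOXP2, while CHGB and VGF show no such order.

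Some members ran in parallel over the 10 libraries. CHGA and SCG3 correlated at r = 0.98, and CHGB with them at 0.75 and 0.77. VGF and SCG2 correlated at 0.74, and VGF and CPE at 0.65. CHGA and VGF correlated at only 0.06. These coefficients describe 10 libraries in 5 states, which share rounds and cDNAs, and carry no test. They include empty vector, the state used to choose the members, where CHGA, CHGB and SCG3 were highest. Over the 8 FOXP2 libraries alone, CHGA and SCG3 correlated at 0.96, and CHGB with them at 0.54 and 0.59. There VGF and SCG2 correlated at 0.73, VGF and CPE at 0.68, and CHGA and VGF at 0.08. The ratio of CHGA to SCG3 was 5.58 and 6.25 with empty vector and 1.30 to 3.78 with FOXP2, so CHGA differed more than SCG3.

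The genes whose pattern over the 10 libraries was most like that of CHGA, among 13412 genes whose mean reached 1 BPKM, included HMP19 (r = 0.99) and MARCH11 (r = 0.96). HMP19 had 8.42 and 3.52 BPKM with empty vector and 0.227 to 3.51 BPKM with FOXP2. Those of SCG3 included CHGA and HMP19, each at r = 0.98. CHGB was closest to ACVR2B, BRSK1 and PQLC1 (r = 0.90, 0.89 and 0.85). SCG2 was closest to SRPX, DQ575742 and C6orf1 (r = 0.95, 0.95 and 0.94), VGF to TMTC4, TRIB2 and FGFR4 (r = 0.94, 0.94 and 0.93), SCG5 to AGPAT6, CHST10 and ZDHHC17 (r = 0.94, 0.91 and 0.89), and CPE to TMEM91, AGPAT4 and CCDC24 (r = 0.96, 0.95 and 0.94).

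Other enzymes of precursor processing overlapped between empty vector and FOXP2. PAM, which amidates peptide ends, had 123 to 198 BPKM, the convertase FURIN of the constitutive pathway 31.8 to 53.7 BPKM, and CPD, a carboxypeptidase of the trans-Golgi network, 19.6 to 33.9 BPKM. Of the 14 genes of this list none was called between FOXP2 and empty vector by limma, and none had an unadjusted p under 0.05. Over all genes that test called 1 of 22238 (0.0045%), no gene of the lists, and gave 794 (3.57%) an unadjusted p under 0.05. The median log2 difference of the list was 0.00, beside −0.03 for all genes tested.

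PCSK1N, the precursor of an inhibitor of PC1/3, had 17.8 and 14.5 BPKM with hsaFOXP2, 4.48 to 9.86 BPKM with the non-human cDNAs, and 9.02 and 9.26 BPKM with empty vector. Both hsaFOXP2 libraries were above all others. The log2 fold change against non-human FOXP2 was 1.10 (SE 0.28), with an unadjusted p of 0.00429 and an adjusted p of 0.763 in limma.

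Among 25 genes of the granule membrane and of release, limma called none between FOXP2 and empty vector. An unadjusted p under 0.05 was found for 6, all lower with FOXP2, beside 794 of all 22238 genes (3.57%). The list was chosen with earlier results of these data known. The median log2 difference of the list was −0.17, with 16 of 25 negative, beside a median of −0.03 for all genes tested. DBH, the granule enzyme that makes noradrenaline, had 4.15 and 1.79 BPKM with empty vector, 0.786 and 2.33 BPKM with hsaFOXP2, and from 0.396 to 0.778 BPKM with the non-human cDNAs. As for CHGA, hsaFOXP2 replicate B was the highest of the FOXP2 libraries. For DBH it exceeded replicate B of empty vector. For CHGA it was below both empty vector libraries, at 3.24 BPKM against 10.1 and 6.00 BPKM. The log2 difference of DBH to empty vector was −1.76 (SE 0.41), with an unadjusted p of 0.00321 and an adjusted p of 0.486 in limma.

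RPH3A, a Rab3 effector on granules, and SLC18A1, the amine transporter VMAT1, had means under 1 BPKM and are named after their values were seen. RPH3A had 1.12 and 0.453 BPKM with empty vector and 0.0348 to 0.412 BPKM with FOXP2, a log2 difference of −2.07 (SE 0.39, adjusted p = 0.386 in limma). SLC18A1 had 0.353 and 0.0874 BPKM against 0.00565 to 0.205 BPKM, a log2 difference of −0.95 (SE 0.38, adjusted p = 1.00 in limma). SLC18A2, the related transporter VMAT2, overlapped between the states at 2.17 and 2.62 BPKM and at 1.98 to 2.79 BPKM. PTPRN2, the granule membrane protein phogrin, differed by −0.42 (SE 0.14, adjusted p = 1.00 in limma).

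Of 14 cargo peptide genes tested, limma called none between FOXP2 and empty vector, and 1 had an unadjusted p under 0.05, beside 3.57% of all genes. NPY had 4.83 and 4.61 BPKM with empty vector, 18.1 and 4.78 BPKM with hsaFOXP2, and from 0.208 to 3.62 BPKM with the non-human cDNAs, a log2 fold change of 2.81 (SE 0.94, unadjusted p = 0.0166, adjusted p = 0.963 in limma) for hsaFOXP2 against non-human FOXP2. VIP had 20.1 and 13.6 BPKM with empty vector, 50.5 and 5.42 BPKM with hsaFOXP2, and from 3.40 to 16.2 BPKM with the non-human cDNAs. Of 23 cargo genes 7 were listed at 0 in every library, among them PENK, SST and TAC1.

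Of 9 regulators of granule genes tested, limma called none between FOXP2 and empty vector. REST, the repressor that keeps neuronal and granin genes off outside neurons, had 7.69 to 9.21 BPKM, and its corepressor RCOR1 5.84 to 7.47 BPKM. CREB1, which binds the CRE, had 3.29 to 4.98 BPKM. INSM1, a factor of endocrine differentiation, was listed at 0 in all libraries.

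Of the adrenergic markers, 8 of 9 tested had a negative log2 difference to empty vector, with a median of −0.20. Only DBH and GATA2 had an unadjusted p under 0.05 in limma, beside 3.57% of all genes. GATA2 had 11.4 and 5.95 BPKM with empty vector, 12.3 and 5.78 BPKM with hsaFOXP2, and from 2.54 to 4.72 BPKM with the non-human cDNAs. The medians were −0.04 for the mesenchymal, −0.13 for the glial and −0.14 for the reference genes. Whether a shift in cell state had a part in the levels of CHGA and SCG3 was not tested.

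**Figure D4:**
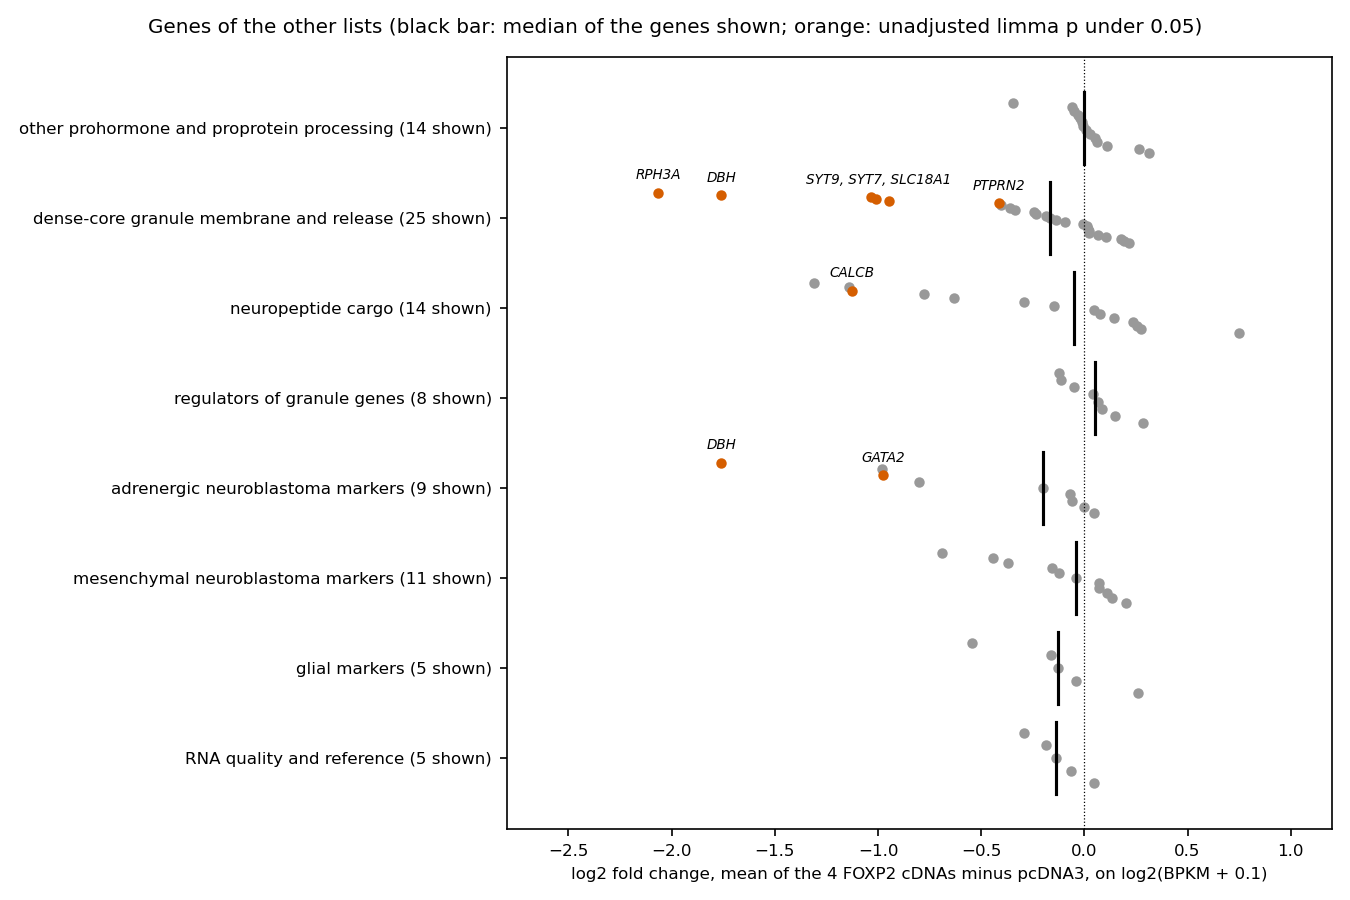
Log2 fold change of the mean of the 4 FOXP2 cDNAs over pcDNA3 (x axis, on log2(BPKM + 0.1)) for genes of 8 lists (y axis); black bars are medians of the genes shown and orange points have an unadjusted limma p under 0.05. RPH3A at −2.07 and DBH at −1.76 stand farthest to the left, and no gene shown passed adjustment.

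The transcripts of CHGA differed little from each other. The table listed 20 transcripts for the 9 members, 2 for each granin. For CHGA, transcript uc001ybc.4 had 10.4 and 6.18 BPKM with empty vector and uc001ybd.4 had 9.72 and 5.81 BPKM. With mmuFOXP2 replicate A they had 0.230 and 0.242 BPKM. The models of a gene share most exons, so these rows are not separate measurements.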

How the data were processed

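Levels of granin and granule processing genes were read from 10 RNA-seq libraries of stably transfected SH-SY5Y cells. The authors selected polyadenylated RNA, aligned paired reads to hg19 with STAR (version not given in the sources used here), and counted exons of UCSC transcripts. They deposited BPKM, which is RPKM with bases counted instead of reads. The submitters' processing notes name hg19 too. Neither counts nor strand use were given. The mean BPKM over the transcripts of each symbol was used; 2 transcripts of 80922 with an unknown symbol were left out.

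Tests used limma 3.58.1 in R 4.3.3, with trend and robust moderation, on log2(BPKM + 0.1), which understates changes of low genes. Genes above 0 BPKM in at least 2 libraries were tested, with Benjamini-Hochberg adjustment at 0.05. Relative depth came from steps between values under 0.02 BPKM. Other steps ran in Python 3.11.15 (scipy 1.17.1, pandas 2.3.3, numpy 2.4.6; figures with matplotlib 3.10.9), and the fits were tested on simulated data.

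The members, lists and alternatives were chosen with earlier results of these data known. Named genes are the members, FOXP2, up to 4 genes of smallest p per list and comparison with a mean of at least 1 BPKM, all regulators, adrenergic and mesenchymal markers and reference genes, and the 3 genes most like each member; a few items within this rule are not reported here. The slope on FOXP2 RNA was added after the values were seen. The letters pair libraries by round of transfection: differences between A and B correlated at −0.194 to 0.369 between states, above 0.1 in 5 of 10 pairs.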

Additional observations from a re-analysis of the deposited data

Results flagged for a closer look

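In the group of 6 non-human FOXP2 libraries, ptrFOXP2 replicate A stood apart from the other 5 in CHGA and in SCG3. It had 1.56 BPKM of CHGA, where the next highest library had 0.595 BPKM, and 0.413 BPKM of SCG3, where the next had 0.197 BPKM. The gap to the nearest library was 0.729 of the whole range for CHGA and 0.786 for SCG3. This library also had the lowest FOXP2 RNA of the 6, 2.09 BPKM. It is among the 8 libraries of the slope on FOXP2 RNA given above, but why it stood apart was not tested. PCSK2 was listed at 0.000426 BPKM in cjaFOXP2 replicate A and at 0 in the 5 other non-human FOXP2 libraries. With the 5 others at 0, any value above 0 is marked. Chance alone marks about 1 in 20 groups of normally distributed values by this criterion. It was applied to BPKM without logs, for which that rate need not hold.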

How the results depend on the processing

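Of 587 alternative values for single genes, 558 counted as unchanged. For tested values this meant the same side of the threshold and, where signed, the same direction. None of these passed the threshold in the main fits, so only passing it or changing sign could count as a change. The count of unchanged values is thus a weak measure of how stable they were. For members against empty vector, unchanged meant a shift smaller than the pooled SD between replicates, whatever the sign. Some of these changed sign without 1 library. The ranges against empty vector were −0.23 to 0.19 for SCG2, −0.38 to 0.18 for SCG5 and −0.15 to 0.098 for VGF. The exceptions outside the fits without 1 library were SCG2 between hsaFOXP2 and non-human FOXP2 after division by size factors (−0.022), the slope of CPE on FOXP2 RNA with the cDNA as a factor (−0.077), and CHGA and SCG3 against empty vector with a pseudocount of 1 (−2.24 and −0.85 on the log2 scale). A pseudocount of 1 lowers such differences by construction.

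The numbers of genes called were small throughout. Between hsaFOXP2 and non-human FOXP2 there was 1 gene with a pseudocount of 1 and 1 with a mean of at least 1 BPKM. With that minimum there was 1 gene between the rounds, 3 among the cDNAs and 0 between FOXP2 and empty vector (163 at an unadjusted p under 0.05). Among the cDNAs there were 0 without trend and robust moderation (2393 at an unadjusted p under 0.05) and 0 with the replicate block (2879). Between FOXP2 and empty vector there were 2 with transcripts summed. The block changed no other call. Why these counts moved was not tested.

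Without 1 library at a time, the counts ranged from 1 to 40 for hsaFOXP2 against non-human FOXP2, from 0 to 1 for the rounds, from 0 to 156 among the cDNAs, from 1 to 8 against empty vector and stayed at 0 for the slope. Without hsaFOXP2 replicate B they reached 40 and 156, the lone hsaFOXP2 library being assumed to vary like the others, and without pcDNA3 replicate B they reached 8. No member passed in those of these fits that tested members. For hsaFOXP2 against non-human FOXP2 CHGA ranged from 1.24 to 2.46 and SCG3 from 0.72 to 1.75, CHGB from −0.12 to 0.57, SCG2 from −0.46 to 0.47, VGF from −0.087 to 0.26 and CPE from −0.36 to 0.33. Between the rounds CHGA ranged from −0.54 to 0.22 and SCG3 from −0.52 to 0.017. The slopes on FOXP2 RNA ranged from −0.086 to 0.0048 for CHGB, from −0.086 to 0.14 for SCG2, from −0.13 to 0.019 for SCG5, from −0.048 to 0.086 for VGF and from −0.020 to 0.081 for CPE. Against empty vector CPE ranged from −0.36 to 0.35, DBH from −2.34 to −1.17, RPH3A from −2.63 to −1.50 and SLC18A1 from −1.58 to −0.31, with no call. Without read counts, the precision of low values such as those of PCSK1 and PCSK2 is unknown.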
